A study of Mus musculus with 8 samples.

Results

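The cytosolic ribosomal protein genes were followed in bulk RNA-seq of mouse small intestinal crypts and villi. Members were all symbols that begin with Rpl, Rps or Rplp and a digit, together with *Rpsa*; symbols marked -ps (pseudogenes) and the *Rps6k* kinases were left out. The rule found 81 of the 11554 genes listed for crypts (48 of the large and 33 of the small subunit) and 83 of the 12701 genes listed for villi (49 and 34). All 81 crypt members were also listed for villi, where *Rpl23a* and *Rps27rt*, a retrogene relative of *Rps27*, came in addition. Of the 86 protein-coding genes in the annotation that match the rule, *Rpl3l*, *Rpl10l* and *Rpl39l* were listed in neither tissue. *Rps19bp1* matches the rule by its symbol but encodes a nucleolar protein that binds a ribosomal protein, and was kept.

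The cKO mice were *Gli1-Ptgs cKO* animals, in which a tamoxifen-inducible Cre driven by the *Gli1* promoter acts on floxed *Ptgs1* and *Ptgs2* in mesenchymal cells. These genes encode COX1 and COX2, enzymes of prostaglandin synthesis. The crypts and villi sampled here are the neighbouring tissue, not the targeted cells. Ctrl mice are labelled WT; the extraction notes describe them as *Gli1-CreERT2* with a Rosa26-tdTomato reporter, and the study's legend describes them as carrying the floxed genes without Cre. All were on the C57BL/6 background, their age is not given in the labels, and each group had 2 libraries. Each library's value for a gene is its read count divided by the library's size factor, called the normalized count. The 2 Ctrl villus columns were identical for all 12701 genes and were counted as 1 library, so villi allowed no test.

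Each cytosolic ribosome is built from a small and a large subunit, and each ribosomal protein is present in about equal number, so cells make the ribosomal protein mRNAs as a coordinated, very abundant set. Most of these mRNAs are short, and many begin with a C followed by a run of pyrimidines, the terminal oligopyrimidine tract, through which their translation answers to the growth kinase mTOR. Dividing crypt cells build many ribosomes, and cells leaving the crypt for the villus build fewer.

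The start tract is a property that the name rule did not use. RefSeq start sequences (GRCm38.p6) were at hand for 63 of the 83 members, and 26 of these (41.3%) had, on the gene's own strand and within 3 bases of an annotated start, a C followed by at least 4 bases that were each C or T, against 13.5% of all 27025 genes with a start sequence. Below are the 10 bases before and the first 20 bases after the start for 4 members with such a tract, in capitals, and 3 without one. They were chosen because *Rps21*, *Rpl38*, *Rps28*, *Rpl41* and *Rpl4* stand at the ends of the crypt comparison, *Rps6* is the member phosphorylated downstream of mTOR, and *Rpl13a* has a long tract.
*Rps21*: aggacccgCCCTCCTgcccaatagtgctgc
*Rpl38*: aagcctcgttCTTTCCCCgttctcttcggt
*Rps6*: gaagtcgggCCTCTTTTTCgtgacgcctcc
*Rpl13a*: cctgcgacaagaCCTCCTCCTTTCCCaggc
*Rps28*: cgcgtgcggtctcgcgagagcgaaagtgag
*Rpl41*: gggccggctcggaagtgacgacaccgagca
*Rpl4*: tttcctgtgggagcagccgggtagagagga
They lie at chr2:180257369-180257398 (plus strand), chr11:114668570-114668599 (plus), chr4:86857348-86857377 (minus), chr7:45128726-45128755 (minus), chr17:33824543-33824572 (minus), chr10:128549149-128549178 (minus) and chr9:64173377-64173406 (plus). No match says only that the tract is not at these annotated starts.

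Reads on listed genes numbered between 16853017 and 21121714 per crypt library and between 13477600 and 15751024 per villus library. The lowest mean was 48.4 normalized counts in the crypt table and 8.82 in the villus table, so weakly expressed genes are outside both. The targeted *Ptgs1* overlapped between crypt groups, at 365.5 and 163.8 normalized counts for Ctrl and 178.4 and 198.9 for cKO, and *Ptgs2* was not listed. The stem cell markers summed to between 4983 and 5690 CPM (counts scaled to a common total of listed reads) in the crypt libraries and between 168.9 and 407.5 in the villus libraries, and the 10 enterocyte markers were highest in villi, at 30014 to 36097 CPM against 5698 to 8112 in crypts, as the tissue labels say. Across the crypt libraries the proliferating markers summed to 2450.5 to 2906 CPM, the goblet markers to 5096 to 6053, the mesenchymal markers to 457.6 to 866.3 and the immune markers to 320.3 to 867.7. Across the villus libraries proliferating markers summed to 370.1 to 482.0 CPM, goblet markers to 5180 to 7156.5 and mesenchymal markers to 107.7 to 171.7. Crypt cKO replicate 1 stood apart from the other 3 crypt libraries: its mitochondrially encoded genes summed to 26147 CPM against 65307 to 113145, and its Paneth cell markers to 38787 CPM against 21941 to 27799. The single Paneth markers were unequal there, with log2 differences from Ctrl between 0.01 for *Reg3g* and 1.54 for *Defa22*. Their median was 0.69, at a median principal mRNA of 740 bases. Genes outside the ribosomal set with principal mRNAs from 500 to under 1000 bases had a median of 0.91. The part of mRNA length in the Paneth sum was not tested. In bulk tissue, fewer cells of a type and less RNA per cell cannot be told apart.

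In crypts, ribosomal protein genes took 5.05% and 4.37% of reads in Ctrl and 8.91% and 4.22% in cKO. The excess was in cKO replicate 1 alone, and cKO replicate 2 lay below both Ctrl libraries. As means the shares were 4.71% ± 0.48 (SD, n = 2) and 6.57% ± 3.31 (SD, n = 2), and an exact two-sided permutation test gave p = 1; 2 libraries against 2 cannot give a p below 0.333. Large subunit genes took 2.86%, 2.55%, 4.995% and 2.47% of reads in Ctrl replicates 1 and 2 and cKO replicates 1 and 2. Small subunit genes took 2.19%, 1.82%, 3.91% and 1.75%, so both subunits followed the same order of libraries, with ratios of large to small between 1.28 and 1.41. In villi the share was 4.68% in Ctrl (95% Wilson interval 4.668 to 4.689%) and 2.87% and 2.74% in the cKO libraries. This interval covers counting error only.

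**Figure D1:**
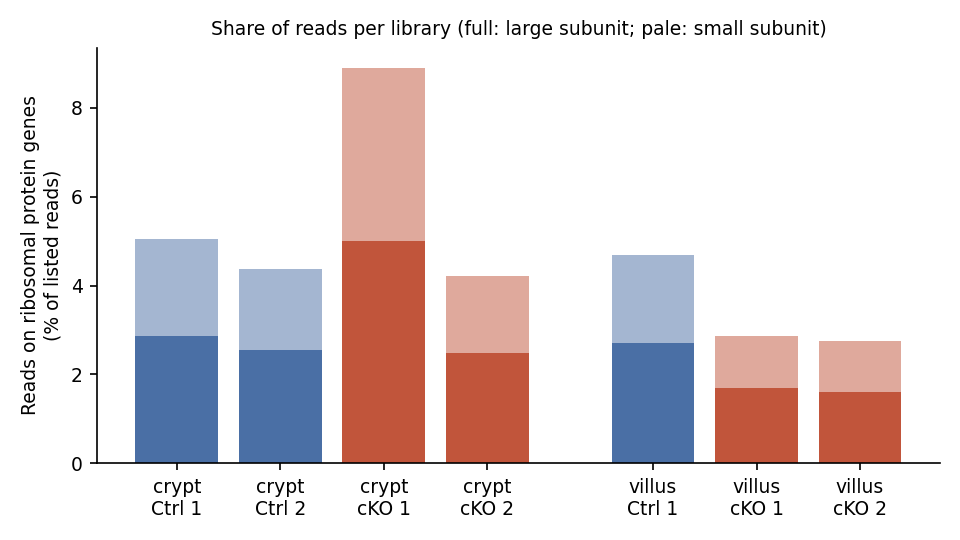
Percent of the reads on listed genes that fell on ribosomal protein genes, 1 bar per library, split into large subunit (full colour) and small subunit (pale), Ctrl in blue and cKO in red. Crypt cKO replicate 1 reaches 8.91% while the other crypt libraries lie between 4.22% and 5.05%, and both villus cKO libraries lie below the villus Ctrl library.

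In crypts no ribosomal protein gene passed the test of genotype without a replicate block. By limma-trend on log2(normalized count + 1), adjusted by Benjamini-Hochberg over 11554 genes, 0 members had an adjusted p under 0.05, as had 0 of all genes (0%), and edgeR and DESeq2 on the recovered reads also gave 0 members. At the study's own kind of threshold, an unadjusted p under 0.01 and a log2 fold change over 1, 0 members were higher in cKO by limma-trend, against 0.173% of all genes, and 5 by DESeq2, against 0.519%. At an unadjusted p under 0.05 the count was 0 members with limma-trend (0.632% of all genes), 1 with edgeR (0.935%) and 24 with DESeq2 (1.96%). The lowest limma-trend p of a member was 0.0888, for *Rpl36*. All 81 fitted log2 fold changes were positive, as were 48.6% of all genes, with a median of 0.53, beside 0.32 for 1213 other genes whose longest transcript is under 1500 bases and -0.01 for all genes. The value for other short transcripts depended on the definition: it was 0.0595 over the 6041 genes whose median annotated transcript is under 1500 bases. That direction came from a single library. Relative to the Ctrl mean, the median log2 difference of the members was 1.19 in cKO replicate 1 and -0.14 in cKO replicate 2. Without cKO replicate 1 the median fold change was -0.14 and 71 members were negative, against 51.9% of all genes. Without cKO replicate 2 it was 1.19 and 75 members had an adjusted p under 0.05 (limma-trend), against 17.2% of all genes, where the lone cKO library is assumed to vary like the Ctrl group.

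Counted library by library, cKO replicate 1 was above both Ctrl libraries for 81 of 81 members, a relation that 41.8% of all genes showed. In that library the members stood between 1.20 and 5.57 times the Ctrl mean, and 58 of them at more than 2 times, against 6.49% of all genes. cKO replicate 2 was below both Ctrl libraries for 47 of the 81, against 35.6% of all genes, at between 0.637 and 1.15 times the Ctrl mean. Only 4 members, *Rpl8*, *Rpl15*, *Rpl36* and *Rps3*, had both cKO libraries above both Ctrl libraries, a share below the 9.73% of all genes that did. None had both below, against 11.3% of all genes.

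**Figure D2:**
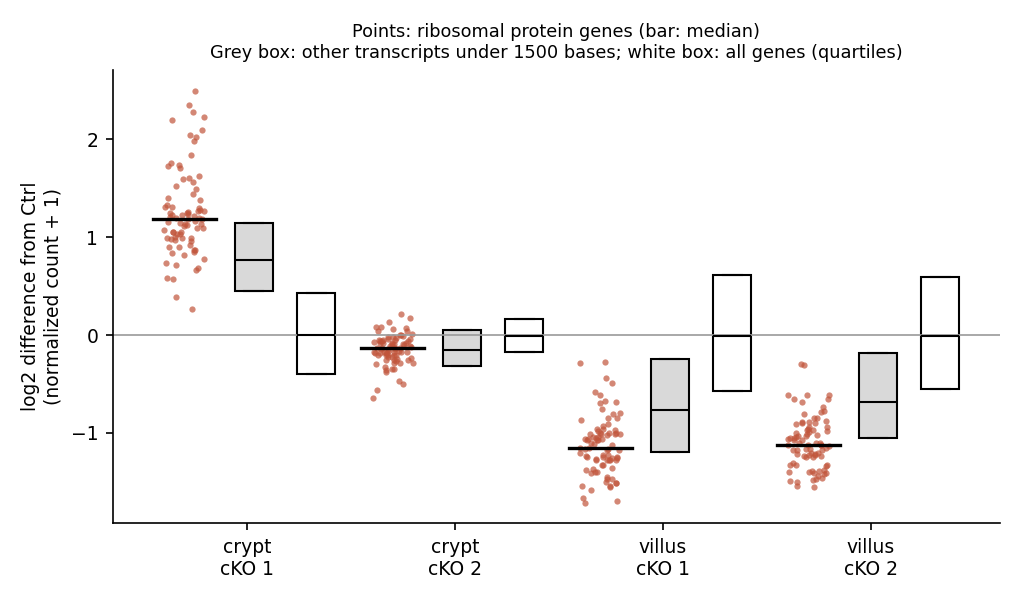
Log2 difference of each cKO library from Ctrl of the same tissue, on the log2(normalized count + 1) scale; points are ribosomal protein genes with a bar at their median, and boxes give the quartiles and median of other transcripts under 1500 bases (grey) and of all genes (white). The members' median is 1.19 and -0.14 in the 2 crypt cKO libraries and -1.16 and -1.12 in the 2 villus cKO libraries, while the median of all genes stays near 0.

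The 5 largest crypt fold changes belonged to members with small mRNAs. *Rpl36*, a large subunit protein encoded at chr17:56613416-56614243 (GRCm38), had 1392 and 1211 normalized counts in Ctrl and 6321 and 1468 in cKO. Its cKO values both lay above Ctrl, but 1 of them by little (log2 fold change 1.23 ± 0.62 SE, adjusted p = 0.9996, limma-trend). *Rps21* had 1016 and 733.6 in Ctrl and 4871 and 759.9 in cKO, so that cKO replicate 2 fell between the Ctrl values (1.16 ± 0.78). *Rps28*, among the shortest ribosomal proteins, had 350.5 and 338.5 in Ctrl and 1756 and 317.4 in cKO (1.11 ± 0.72). In each of these genes the same library was high and the other 3 lay far closer to each other. *Rpl41*, whose coding sequence of 75 bases is the shortest of the set, had 3777 and 2917 in Ctrl and 13091 and 3204 in cKO (0.96 ± 0.61). *Rpl38*, known for a role in the translation of patterning genes, had 704.7 and 610.3 in Ctrl and 3005 and 533.0 in cKO (0.95 ± 0.72). For both genes the groups overlapped.

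At the other end, the fold changes were near 0, and cKO replicate 1 exceeded the Ctrl libraries by less. *Rpl7l1*, a relative of *Rpl7*, had 2138 and 2181 in Ctrl and 2595 and 2035 in cKO (0.09 ± 0.25). *Rps3a1* had 33183 and 27673 in Ctrl and 48103 and 21830 in cKO (0.10 ± 0.45). *Rpl4*, a core large subunit protein with the longest coding sequence of the set, 1257 bases, had 34762 and 33592 in Ctrl and 44648 and 31547 in cKO (0.14 ± 0.36). In all 3 the second cKO library was the lowest of the 4. *Rpl6* had 24022 and 23278 in Ctrl and 35072 and 20037 in cKO (0.16 ± 0.38), and *Rpl30* had 4098 and 5235 in Ctrl and 9478 and 2975 in cKO (0.20 ± 0.52). By ratio, *Rpl30* had the widest gap between its 2 cKO libraries among these 5 genes.

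**Figure D3:**
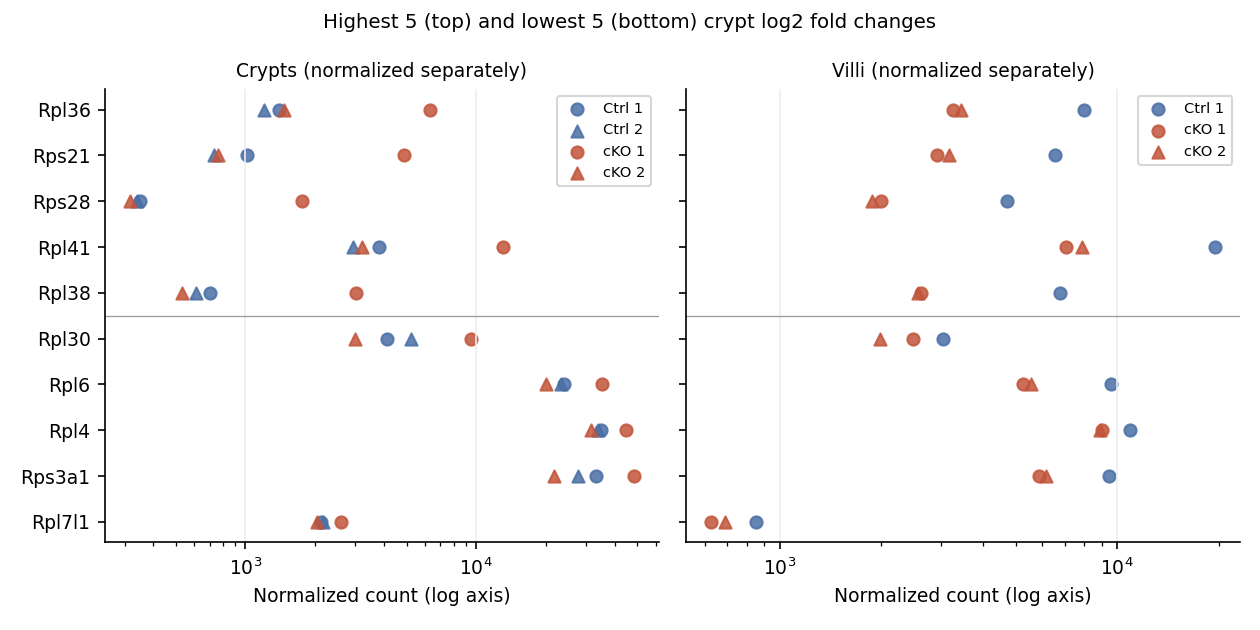
Normalized counts (log axis) of the 5 members with the highest and the 5 with the lowest crypt log2 fold change, in every library of crypts (left) and villi (right), circles for replicate 1 and triangles for replicate 2, Ctrl blue and cKO red. In crypts the red circle, cKO replicate 1, is the highest value of all 10 genes while cKO replicate 2 lies within, near or below the Ctrl values, and in villi both red symbols lie below the blue one.

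The core members had the same excess in cKO replicate 1. Among the stalk proteins, which recruit elongation factors to the ribosome, *Rplp0* had 35745 and 34239 normalized counts in Ctrl crypts and 63785 and 32936 in cKO (log2 fold change 0.39 ± 0.43 SE). *Rplp1* had 26625 and 21117 in Ctrl and 57512 and 18563 in cKO. *Rplp2* had 6842 and 5602 in Ctrl and 20434 and 5857 in cKO, and in none of the 3 did the groups separate. *Rpl5* and *Rpl11*, which also bind the p53 regulator Mdm2 when ribosome assembly fails, had 19539.5 and 19190.0 and 7220.0 and 6714 in Ctrl. Their cKO values were 34863 and 19237 for *Rpl5* and 14909.5 and 7142 for *Rpl11*. *Rps6* had 11509 and 10373 in Ctrl and 21654.5 and 9479 in cKO, and *Rps19*, mutated in Diamond-Blackfan anaemia, 5325 and 3734 in Ctrl and 13537 and 4385 in cKO. In all of these the first cKO library was the highest and the second lay within or below the Ctrl range.

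The 4 members whose crypt groups did not overlap were 3 large subunit proteins and *Rps3*, which lines the mRNA entry channel of the small subunit. *Rpl8* had 13865 and 13847.5 normalized counts in Ctrl and 33352.5 and 14608.5 in cKO (log2 fold change 0.67 ± 0.43 SE). *Rpl15* had 6844 and 7954 in Ctrl and 17470.5 and 8536 in cKO (0.73 ± 0.38). *Rps3* had 15303 and 15235.5 in Ctrl and 42907 and 16737 in cKO (0.81 ± 0.47). For these 4, the second cKO library exceeded the higher Ctrl library by far less than the first did. In villi all 4 had both cKO libraries below Ctrl, as had every other member. The pairing was shown by 4.94% of the 81 members and by 5.99% of the 11227 genes in both tables.

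Levels were compared between members per kb of mRNA, using the length of the annotated principal transcript, which ran from 345 to 5179 bases with a median of 838 in the crypt set. On this scale *Rplp1* was the highest member in all 7 libraries, at 53356 and 42319 normalized counts per kb in Ctrl crypts, 115255 and 37201 in cKO crypts, 48322 in Ctrl villi and 16579.9 and 17165 in cKO villi. Over the crypt libraries *Rps12*, *Rps3a1*, *Rps14* and *Rplp0* followed it. The 3 lowest in crypts were *Rpl22l1*, *Rps19bp1* and *Rpl35*, at 115.8 to 355.4, 234.7 to 611.0 and 223.9 to 1037 per kb. *Rpl35* encodes a standard large subunit protein. Its level, like that of *Rpl23a* (183.0, 119.3 and 88.9 normalized counts in the villus libraries), is uncertain. Reads of members with near-identical pseudogene copies can be assigned elsewhere or dropped. The annotation has 1 symbol marked -ps for *Rpl35*, 14 for *Rpl23a* and 24 for *Rps12*, one of the highest members. The part of such copies in these levels was not tested.

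Within the crypt libraries the members with the smallest mRNAs were low. The 10 members with a principal mRNA under 500 bases had a median of 3446.5 and 2892 normalized counts per kb in the Ctrl libraries, against 11812 and 9622 for the 71 longer members, a ratio of 0.292 and 0.3005. In cKO the ratio was 0.454 in replicate 1 and 0.313 in replicate 2, so cKO replicate 1 was the crypt library in which small and longer members were closest. In villi the 11 members under 500 bases were above the 72 longer ones, with ratios of 1.24 in Ctrl and 1.37 and 1.30 in cKO. The spread of the members around each other, as the SD of log2 level per kb, was 1.64 and 1.66 in Ctrl crypts, 1.48 and 1.66 in cKO crypts, and between 1.497 and 1.61 in villi.

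The difference itself was larger for shorter members. Over the 81 members, the log2 difference of crypt cKO replicate 1 from Ctrl had a Spearman correlation of -0.51 with principal mRNA length and -0.74 with coding length, given as descriptions over genes of shared libraries. For cKO replicate 2 the values were 0.15 and 0.20. Over all 11316 genes with a principal mRNA they were -0.68 and -0.59 in cKO replicate 1, and 0.34 and 0.32 in replicate 2. Against mean level, the members' difference in cKO replicate 1 had a correlation of -0.62, beside 0.026 over all 11554 genes. Members under 500 bases had a median difference of 1.98 in cKO replicate 1, those from 500 to under 1000 bases 1.21 (n = 44) and those of 1000 bases or more 1.09 (n = 27). Other genes of the same length classes had medians of 1.41 (n = 59), 0.91 (n = 560) and -0.04 (n = 10616). The gap was widest at 1000 bases or more, a class with no upper limit, within which lengths were not matched. Of the 81 members, 69 were under 1500 bases, and the 1656 other genes with a principal mRNA under 1500 bases had a median of 0.70. The members and the other genes thus ran in the same direction with length. In villi the members showed little of this order, with Spearman values of 0.13 and 0.12 for the 2 cKO libraries (n = 83), although over all 12135 genes with a principal mRNA these were 0.55 and 0.51. The part of the mitochondrial and Paneth marker levels of crypt cKO replicate 1 in these differences was not tested.

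**Figure D4:**
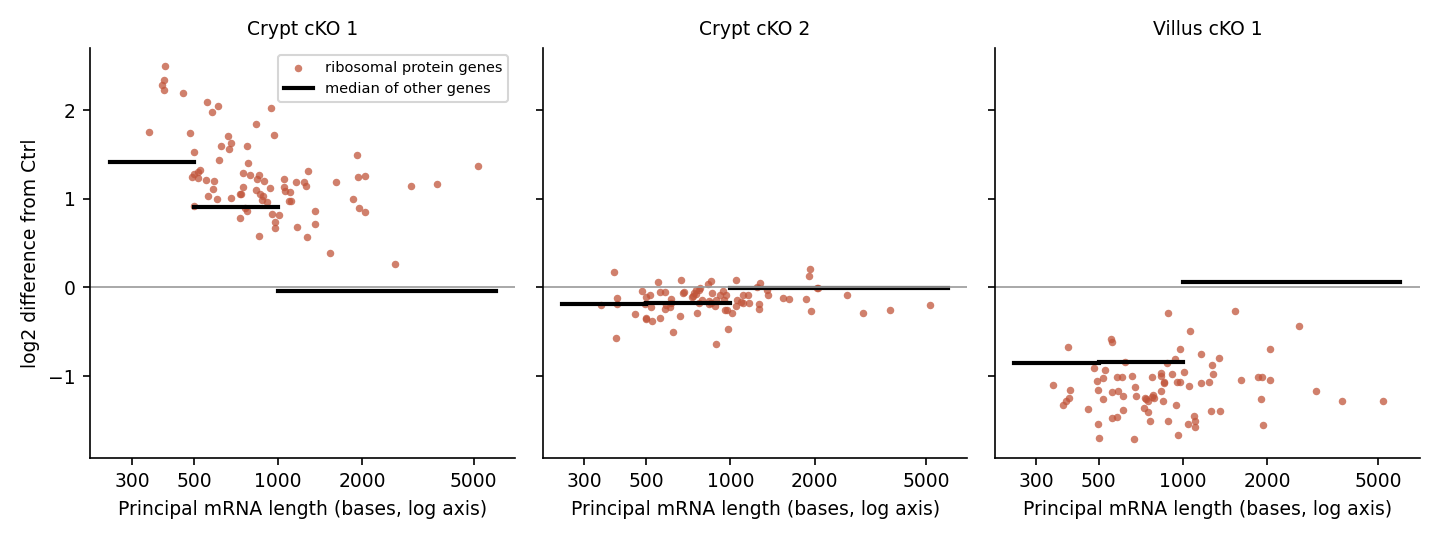
Log2 difference from Ctrl against principal mRNA length (bases, log axis) for crypt cKO replicate 1, crypt cKO replicate 2 and villus cKO replicate 1; points are ribosomal protein genes, and black lines give the median of other genes under 500, from 500 to under 1000 and of 1000 or more bases. In crypt cKO replicate 1 the points fall with length from medians of 1.98 to 1.09, in crypt cKO replicate 2 they stay near 0, and in villus cKO replicate 1 they lie below 0 at every length.

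In crypt cKO replicate 1, short transcripts outside the ribosome differed from Ctrl in the same direction by less. The median log2 difference was 0.77 for the other transcripts under 1500 bases, of which 1052 of 1213 were above both Ctrl libraries, and 1.22 for the 56 members under 1500 bases. With short defined by the median annotated transcript, the other transcripts had 0.20. In cKO replicate 2 the medians under the first definition were -0.16 and -0.15, so the members differed there by no more than the other transcripts. When a smooth curve on the longest transcript length was subtracted from each library, the members' median in cKO replicate 1 was 0.49, with 70 of 81 positive against 48.6% of all genes, and that of the other short transcripts -0.04. With principal mRNA length it was 0.31, with 65 of 81 positive against 49.1% of all genes, and 0.02. The fitted median fold change of the members was 0.53 before and 0.20 and 0.17 after these corrections.

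In villi each of the 83 members was lower in both cKO libraries than in Ctrl. Both cKO libraries lay below the Ctrl library for 83 of 83 members, against 44.2% of all genes, and both were lower by more than 1 log2 unit for 52 of them, against 6.4% of all genes. This second count was 9 when scaled to library totals (0.756% of all genes), 7 with the length curve described above (3.23%) and 4 with the curve on principal mRNA length (2.51%). With 1 Ctrl library this is a description of these libraries, not a test of genotype. The median log2 difference was -1.16 in cKO replicate 1 and -1.12 in replicate 2, with median ratios to Ctrl of 0.448 and 0.460, beside -0.76 and -0.68 for the 1633 other short transcripts and -0.01 for all genes. By the median annotated transcript, other short transcripts had -0.24 and -0.22. The large and small subunits had similar medians, at -1.10 and -1.15 as means of both libraries. After subtraction of the length curve the members' medians were -0.46 and -0.51, with 78 of 83 negative in both libraries against 43.7% of all genes, and those of the other short transcripts were -0.04 and -0.03. Scaled to the library totals, the median of all genes moved to 0.37 and that of the members to -0.68, a gap of -1.05 where it had been -1.11.

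The furthest below Ctrl was *Rps14*, a small subunit protein of the decoding platform, with 21638.5 normalized counts in Ctrl villi and 6604 and 7368 in cKO (-1.71 and -1.55). *Rplp2* had 12669 in Ctrl and 4005 and 4344 in cKO (-1.66 and -1.54). *Rps15* had 12512 in Ctrl and 3864 and 4600.4 in cKO (-1.70 and -1.44). These 3 were the lowest of the 83 by the mean of both differences. Nearest to Ctrl were *Rpl4*, with 10914 in Ctrl and 9046 and 8907 in cKO (-0.27 and -0.29), *Rpl7l1*, with 849.1, 627.7 and 688.7 (-0.44 and -0.30), and *Rpl30*, with 3042, 2489 and 1987 (-0.29 and -0.61). These 3 were also among the 5 smallest differences in crypts. *Rpsa*, a small subunit protein also known as the laminin receptor, had 24088.5 in Ctrl and 8211.5 and 8623 in cKO, and *Rps2* had 20655 in Ctrl and 7542 and 7729. *Rpl13a* had 23134 in Ctrl and 7955 and 8833 in cKO, and *Rpl41* had 19435 in Ctrl and 7030.2 and 7861 in cKO. Apart from the 3 nearest to Ctrl, the cKO replicates of these genes were close to each other and the Ctrl library stood far above both.

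Some other measures differed between the same villus libraries. The 11 immune markers summed to 1947 CPM in Ctrl villi and 745.2 and 758.7 in cKO. Of the 11, 8 had both cKO libraries below Ctrl and 1 had both above, beside 44.2% and 43.7% of all genes. The 1 above was the general leukocyte marker *Ptprc*, with 200.4 normalized counts in Ctrl and 607.8 and 722.5 in cKO. The T cell markers *Cd3e* (232.8, then 211.8 and 253.1) and *Cd8a* (843.3, then 757.7 and 931.1) had 1 cKO library on each side of Ctrl. The 8 Paneth markers summed to 3253 CPM in Ctrl and 1845 and 1710 in cKO, but 4 of the 8 had both cKO libraries above Ctrl and 2 had both below. *Reg3g*, an antimicrobial lectin, had 46512 normalized counts in Ctrl villi and 10864 and 14177 in cKO, and *Lyz1*, the Paneth cell lysozyme, had 2274 in Ctrl and 4165 and 2539 in cKO. The Paneth list as a whole thus did not follow the ribosomal protein genes. *Neat1* and *Malat1*, long RNAs kept in the nucleus, were higher in cKO villi, with *Neat1* at 685.8 normalized counts in Ctrl and 3646 and 3909.8 in cKO and *Malat1* at 1556 in Ctrl and 5358 and 5145 in cKO. Mitochondrially encoded genes summed to 227155 CPM in Ctrl and 193497 and 263484 in cKO, 1 library below and 1 above. The part of the immune and nuclear RNA levels in the ribosomal protein difference was not tested.

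Set side by side, the same members had unlike levels in the Ctrl libraries of the 2 tissues. Each table was scaled on its own, so CPM of listed genes were used, and the comparison carries no test. CPM also depend on the other listed genes. Mitochondrially encoded genes took 227155 CPM in Ctrl villi and 65307 and 88248 in Ctrl crypts. The part of this in the ratios was not tested. The median ratio of Ctrl villi to Ctrl crypts was 1.11 over 81 members, and 52 were above 1. For the 10 members under 500 bases it was 6.41, for those from 500 to under 1000 bases 1.11 and for those of 1000 or more 0.97. The highest ratios were 15.1 for *Rps28*, 11.4 for *Rpl38* and 11.4 for *Rps29*, and the lowest 0.34 for *Rps3a1* and 0.35 for *Rpl4*. The order of the length classes was that of the difference in crypt cKO replicate 1, the crypt library in which *Rps28*, *Rpl38* and *Rps29* were highest. Both comparisons use the same Ctrl crypt libraries as reference, so a low value there raises both.

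**Figure D5:**
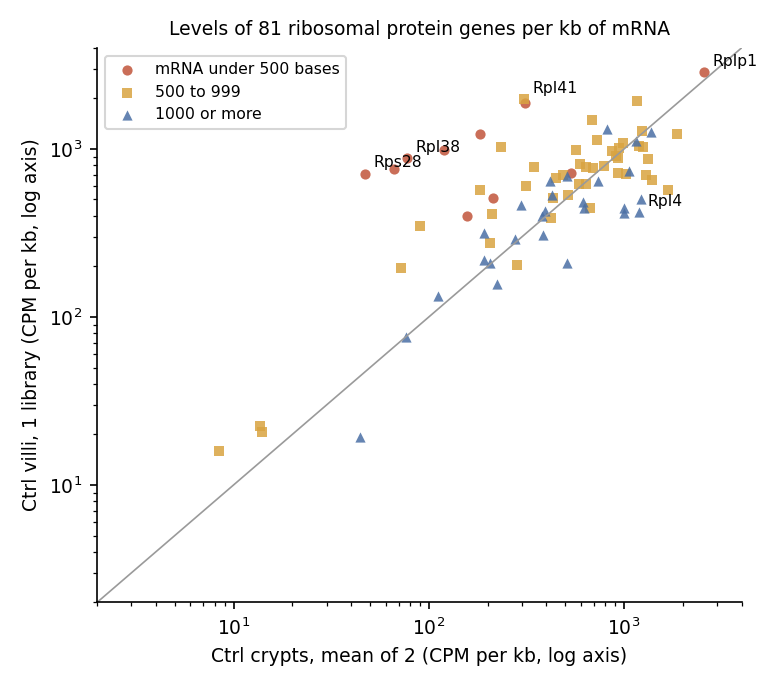
Level per kb of principal mRNA (CPM per kb, log axes) of 81 ribosomal protein genes in Ctrl crypts (mean of 2 libraries, horizontal) and Ctrl villi (1 library, vertical), by mRNA length class, with a line of equal level. Members under 500 bases lie above the line, with *Rps28* at 15.1 times its crypt level in CPM, while members of 1000 bases or more lie around the line with a median ratio of 0.97.

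Paralogs were listed for *Rpl22*, *Rps27*, *Rpl36a* and *Rpl7*. *Rpl22l1* had 109.6 and 63.9 normalized counts in Ctrl crypts and 196.2 and 87.2 in cKO, against 4589 and 3942 and 10171.5 and 4243 for *Rpl22*. In villi *Rpl22l1* had 148.3, 98.6 and 88.9 and *Rpl22* had 4644, 2258 and 2219.5, so the paralog stayed a small part of the pair in each library. *Rps27l*, a p53 target in the same family as *Rps27*, had 2344.5 and 1633 in Ctrl crypts and 3696 and 1541 in cKO, and *Rps27* had 2114 and 1874 in Ctrl and 6745 and 1729.8 in cKO. The pair was near equal in Ctrl crypts by count, while in villi *Rps27* led, with 10984 in Ctrl against 4292 for *Rps27l* and 76.5 for *Rps27rt*. *Rpl36al* had 2339 and 1693 in Ctrl crypts and 4984.5 and 1529 in cKO, beside 1573 and 1267 and 4712 and 1369 for *Rpl36a*. Reads of such similar copies can be split between them by the counting, so these levels are uncertain. *Rpl7* had 27210.3 and 25958 in Ctrl crypts and 42788 and 23515 in cKO.

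In the related lists no gene passed an adjusted p under 0.05 in crypts by limma-trend, edgeR or DESeq2. Over all genes these methods gave 0, 0 and 11. At an unadjusted p under 0.05 they called 0.632%, 0.935% and 1.96% of all genes. In the related lists limma-trend and edgeR gave 0 genes at that threshold. DESeq2 gave 3 of the 78 mitochondrial ribosomal proteins and 1 of the 2 listed ribosomal proteins that the name rule misses. Of the latter, *Fau*, which encodes a fusion of a ubiquitin-like protein and a small subunit protein, had 4529.7 and 4135 normalized counts in Ctrl crypts and 12865 and 4332 in cKO. *Rack1*, a scaffold protein of the small subunit, had 32708 and 30133 in Ctrl and 55220.0 and 30069 in cKO. In both genes cKO replicate 1 was the highest library. In villi 2 of the 3 listed genes of this kind had both cKO libraries below Ctrl, *Fau* and *Rack1*, with log2 differences of -1.45 and -1.30. Over all genes 44.2% had both below.

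Among 17 translation factors and other mRNAs known for a start tract, the crypt medians were 0.44 in cKO replicate 1 and -0.11 in replicate 2. The members had 1.19 in cKO replicate 1, but the lists differ in length. The median principal mRNA was 1891 bases for these 17 and 838 for the members. Other genes of 1000 bases or more had -0.04 in cKO replicate 1. The part of length in the medians of these lists was not tested. In villi 11 of the 17 had both cKO libraries below Ctrl and 3 had both above, where 44.2% of all genes had both below and 43.7% both above. *Eef1a1*, the main elongation factor, had 194467 and 201727 in Ctrl crypts and 267015.5 and 201858 in cKO, and 65885 in Ctrl villi and 45507 and 45957.5 in cKO. *Gas5*, a noncoding RNA with a start tract, went the other way in villi, at 318.6 in Ctrl and 668.2 and 583.4 in cKO. For 37 genes of ribosome assembly and rRNA synthesis, with a median principal mRNA of 2597 bases, the crypt medians were 0.22 and -0.13. In villi 19 of them had both cKO libraries above Ctrl and 15 below, shares close to those of all genes. Their villus medians were 0.10 and 0.11. Among these, *Eif6*, which keeps the subunits apart, had 9817 in Ctrl villi and 3330.5 and 3785 in cKO, and *Taf1d*, a factor of rRNA transcription, 100.8 and 380.0 and 356.4. The 15 mTOR pathway genes, with a median principal mRNA of 5444 bases, had crypt medians of -0.30 and 0.13. In villi their medians were 0.0029 and -0.13, with 5 above Ctrl in both cKO libraries and 7 below. The lowest was *Eif4ebp1*, the translation repressor that mTOR inactivates, with 319.7 in Ctrl and 115.4 and 152.6 in cKO. The highest was *Rps6kb1*, a kinase that phosphorylates *Rps6*, with 163.3 in Ctrl and 315.8 and 288.8 in cKO.

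The 78 mitochondrial ribosomal protein genes encode the ribosome of the mitochondrion. Their medians in crypts were 0.67 and -0.18 for the 2 cKO libraries, beside 0.77 and -0.16 for the other short transcripts. In villi 75 of 78 had both cKO libraries below Ctrl, against 44.2% of all genes. Their villus medians were -0.85 and -0.79, nearer to 0 than the -1.16 and -1.12 of the cytosolic members. Their median principal mRNA was 1302 bases. *Mrpl54* had 405.7 and 386.2 normalized counts in Ctrl crypts and 1280.0 and 386.6 in cKO, with the excess in replicate 1 as in the cytosolic set.

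Members with and without a tract at an annotated start had similar median differences. A missing match says only that no tract lies at these annotated starts, so the split cannot say whether the tract matters. The 26 with a tract had a median log2 difference of 1.20 in crypt cKO replicate 1 and -0.14 in replicate 2, and the 37 without one 1.11 and -0.12. In villi the medians were -1.14 and -1.12 with a tract and -1.17 and -1.11 without. The 20 members with no start sequence had 1.17 and -0.17 in crypts and -1.16 and -1.1 in villi.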

How the data were processed

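Bulk RNA-seq libraries of crypts and villi were analysed from 2 deposited tables. Per the labels and the study's methods, the authors aligned reads to mm10 with STAR and used DESeq2; each deposited value is a signal, the gene's count divided by the library's size factor, and the counting program, annotation and strand setting are not given in the sources used here, so antisense and overlapping genes are uncertain. The labels and methods name different RNA and library kits. The tables' further columns hold the authors' fold changes and p-values and were not used. The step between neighbouring values gave each library's value of a single read, on which 100% of values were whole within 0.001 reads; these reads gave the depths.

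Crypt groups were compared with limma-trend, from limma 3.58.1 under R 4.3.3, applied to log2(value + 1) over genes with a mean of at least 1, which changed no count, without a block, since edgeR and DESeq2 need counts; edgeR 4.0.16 and DESeq2 1.42.0 on the recovered reads were alternatives. The methods call the replicates biological. The fit was tested on simulated counts in which all libraries varied alike. That setting does not cover a library as far from its replicate as crypt cKO replicate 1. Fold changes are on the log2(value + 1) scale. Lengths and gene identities came from GENCODE M21 (81 and 83 members matched), start sequences from RefSeq. Length curves were lowess fits with a span of 0.3. Marker and related gene lists, and the genes named (the extremes of each comparison, paralog pairs, stalk proteins and well-known members), like the members themselves, were chosen with earlier results of these data known. Other alternatives were scaling, filters, pseudocount, the length and GC corrections, each library left out, and other definitions of a short transcript; corrections and definitions by principal mRNA were chosen after seeing the data. Figures were drawn with matplotlib 3.10.9.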

Additional observations from a re-analysis of the deposited data

Results flagged for a closer look

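Of the 81 members, 4 (4.94%) had both cKO libraries above both Ctrl libraries in crypts and both below Ctrl in villi. This share was below the 5.99% of the 11227 genes in both tables. Since every member was below Ctrl in villi, the pairing restates the crypt count. Their log2 differences, cKO minus Ctrl, were 1.23 in crypts and -1.24 in villi for *Rpl36*, 0.81 and -1.23 for *Rps3*, 0.73 and -0.999 for *Rpl15*, and 0.67 and -1.25 for *Rpl8*. The difference between the tissues was not tested, because the villi had 1 Ctrl library and the tables were scaled separately. With cKO replicate 1 left out, the crypt values of these 4 genes lay between 0.0763 and 0.21. Groups of 2 libraries are too small for a search for single libraries that lie far out.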

How the results depend on the processing

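The median crypt fold change of the ribosomal protein genes stayed positive under every planned and added alternative except when cKO replicate 1 was left out; leaving out single libraries gave -0.14 to 1.19. The median of the other short transcripts ranged from -0.16 to 0.77 when single libraries were left out and turned to -0.0262 after the length correction, -0.0449 after length and GC, both also with the replicate block, and -0.00414 after correction for principal mRNA length. It was 0.0595 with short defined by median annotated length. The count of members at an adjusted p under 0.05 was 2 with the replicate block and 0 to 75 without single libraries. At p under 0.01 and a log2 fold change over 1 it was 3 with the block, 5 with DESeq2 and 0 to 57 without single libraries. Over all genes the adjusted count was 34 with the block, 11 with DESeq2 and 0 to 1987 without single libraries, and the count at the study's threshold, 21 in either direction, was 78, 65 and 18 to 881, and 33 with length and the block. The replicate numbers pair the samples only by number: over all genes same-numbered libraries deviated together with a correlation of 0.25.

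Of single genes, *Rps3a1* turned to -0.27, *Rpl4* to -0.0780 and *Rpl6* to -0.11 with the length correction, with and without the replicate block, to -0.23, -0.0446 and -0.0949 with length and GC, and to -0.22, -0.0424 and -0.0734 with principal mRNA length, where *Rpl30* was -0.16. Without single libraries the ranges were -0.47 to 0.67 for *Rps3a1*, -0.12 to 0.39 for *Rpl4*, -0.24 to 0.57 for *Rpl6*, -0.64 to 1.03 for *Rpl30*, -0.0858 to 0.26 for *Rpl7l1*, -0.18 to 2.50 for *Rps21*, -0.12 to 2.35 for *Rps28*, -0.0510 to 1.98 for *Rpl41*, -0.30 to 2.19 for *Rpl38* and -0.0870 to 0.87 for *Rplp0*. In villi the members' median was -0.68 scaled to library totals, -0.49 with the length correction and -0.40 with principal mRNA length, and -1.16 to -1.12 without single cKO libraries. The other short transcripts had -0.26, -0.0428 and -0.0738, and -0.76 to -0.68. The members past 1 log2 unit in both villus cKO libraries were 9, 7 and 4 in place of 52, against 0.756%, 3.23% and 2.51% of all genes in place of 6.4%. No villus block was possible with 1 Ctrl library. Depth was not compared with other limits.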
